A study of Mus musculus with 6 samples.

Results

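A transcript assembly built from sequencing reads contains spliced transcripts that no gene name was attached to. This account describes 211 such loci in a mouse embryonic stem (ES) cell assembly, out of 46063 loci with an isoform of at least 200 nt. A locus was taken when every one of its isoforms lacked a gene name, at least 1 isoform of 200 nt or more had 2 or more exons, and the summed level reached 1 FPKM as the mean of the 2 libraries of either condition. FPKM counts mapped fragments per kilobase of transcript and per unit of library depth. The loci were thus chosen by their measured level as well as by structure, and that level is given as a description. Of 1278 unnamed multi-exon loci, the 211 passed. A further 720 unnamed loci of a single exon and 12070 named loci of 2 or more exons reached the same level.

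The cells were TT-FHAgo2, a clonal mouse ES line, so all libraries come from 1 clone. Its Argonaute 2 (Ago2) is under the control of doxycycline; this protein binds microRNAs and directs them against complementary transcripts. All cells were kept in 0.1 µg/mL doxycycline. In the first condition the dose was raised to 2.5 µg/mL for 48 h, and in the second the drug was withdrawn for 96 h. Each condition had 2 strand-specific polyA RNA libraries, numbered 0 and 1 below as in the deposited columns. Whether they derive from separate cultures is not in the labels. The p-values below therefore reflect library-to-library spread, which may be technical. The series' spike-in libraries, from ES and mesenchymal stem cells, were not analysed here.

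Unnamed assembled loci have several known sources. A spliced transcript can be a long noncoding RNA, an RNA transcribed head to head with a coding gene from a shared start region, an unannotated end of a known gene, or a gene missing from the annotation that was used. Small genes with many processed copies elsewhere in the genome, such as those of ribosomal proteins, are a known difficulty for annotation and for read mapping.

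The gene encoding Ago2, listed under its older symbol Eif2c2, was at 35.2 and 36.7 FPKM with doxycycline and at 28.7 and 28.8 FPKM without. Those are RNA values for the symbol as a whole. They do not give the level of the protein or tell copies of the gene apart. ES markers were high in all libraries, with Pou5f1 between 502 and 648 FPKM. The 6 fibroblast or mesenchymal markers together summed to between 2.02 and 2.54 FPKM, and Col3a1 and Postn were listed at 0 in all 4 libraries. Read steps in the low values gave totals of 47.0 M and 47.1 M fragments for the libraries numbered 1, with 100.0% of the values checked within 0.1 of a whole read. At that depth 1 FPKM on a transcript of 2000 nt is 85.2 or 85.6 reads, and 3 reads are 0.0352 or 0.0351 FPKM. In the libraries numbered 0 only 34.3% and 35.6% of values came out whole, where 20.0% would by chance, so their depth is unknown. The members held a median of 164 reads with doxycycline and 210 without in the libraries numbered 1. The lowest counts were 1 read with and 0 without.

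Although they lack a name in the assembly, 90 of the 211 loci carried the exon and intron lengths of a gene in a later annotation, GENCODE mouse release 21. Matches were sought on the same chromosome and strand and in the same order among named neighbours. For 49 loci a run of intron, exon and intron had the same lengths in both, and for 41 loci the length of an intron did. Of the matched genes 50 were protein-coding, 35 noncoding and 5 pseudogenes, and 121 loci had no match. No match was also recorded when named neighbours were not found in release 21 or stood in another order. It therefore does not show that release 21 lacks the gene. The procedure was checked on named loci whose isoforms all equalled, or shared a junction with, the transcript that names them. The unnamed loci were not chosen that way, so the rates below need not hold for them. It returned the right symbol for 97.8% of 1120 loci of 3 or more exons and for 90.5% of 294 loci of 2 exons. No match was found for 20 of the former and 24 of the latter. When the right gene was hidden, a wrong gene was matched through such a run in 0.804% of the loci of 3 or more exons. A wrong match through a lone intron arose in 11.4% of them and in 2.38% of the 2-exon loci, so single-intron matches are less certain.

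The sequences below show what these nameless loci contain where a match exists. The highest, XLOC_006788 on chromosome 10 (chr10:127985170-127986361, minus strand, build NCBIM37), has the structure of Rpl41, whose product is a very short protein of the large ribosomal subunit. The coding sequence most common among its GENCODE transcripts is 78 nt long and is printed whole, while the longest annotated one has 141 nt. Its start and stop codons are in capitals.
Rpl41: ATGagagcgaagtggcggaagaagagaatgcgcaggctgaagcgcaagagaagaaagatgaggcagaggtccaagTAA

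Splice junctions of other matched genes follow, each with 25 bases before and 25 after the junction, and the downstream exon is in capitals. They were chosen because their loci carry the highest levels or the largest changes described below, and all are GENCODE release 21 transcript sequences on GRCm38. Those of coding genes lie inside the coding sequence.
Rps27: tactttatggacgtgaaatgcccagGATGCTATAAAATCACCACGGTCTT
Snrpe: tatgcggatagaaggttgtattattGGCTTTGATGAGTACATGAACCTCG
Lsm5: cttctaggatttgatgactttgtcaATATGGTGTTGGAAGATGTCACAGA
Tma7: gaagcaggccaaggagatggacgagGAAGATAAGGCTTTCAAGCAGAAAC
Tnrc18: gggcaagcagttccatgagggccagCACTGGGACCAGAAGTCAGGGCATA
Zscan4d: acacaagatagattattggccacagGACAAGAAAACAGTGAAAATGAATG
2310009A05Rik: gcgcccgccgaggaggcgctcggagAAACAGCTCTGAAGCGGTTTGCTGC
1190028D05Rik: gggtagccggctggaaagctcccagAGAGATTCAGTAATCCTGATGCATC
Gm26905: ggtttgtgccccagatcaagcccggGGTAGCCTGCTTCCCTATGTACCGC
Gm7976: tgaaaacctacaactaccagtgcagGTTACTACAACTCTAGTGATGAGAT
The files hold no sequence of the assembled loci themselves, so these letters belong to the matched genes.

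In structure the 211 loci were simple. There were 114 with 2 exons at most, 39 with 3 and 58 with 4 or more, and the median was 2 exons against 9 for named multi-exon loci. Loci matched to protein-coding genes had a median of 4 exons, and those without a match a median of 2. The median longest isoform was 2930 nt and the median span 7.41 kb, with a longest span of 179.5 kb. They lay on the plus strand in 110 cases and on the minus strand in 101. Chromosomes 7, 17 and 8 held 26, 25 and 19 of them, and the X chromosome held 1. Most, 145, were more than 5000 bases from a named locus of the same strand and outside any named gene. Another 18 began upstream of a named gene on its strand, 16 lay downstream of one and 14 were divergent, starting head to head within 1000 bases of a gene on the other strand. Exons of 8 overlapped those of a gene on the other strand, 8 lay within a gene body on its own strand and 2 within a gene body on the other strand.

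Levels spanned from 0.577 to 1535 FPKM as the mean of the 4 libraries. The median was 1.88 FPKM, against 12.2 for named multi-exon loci and 1.27 for unnamed single-exon loci. Only 26 members averaged 10 FPKM or more, and 111 averaged under 2. Together they held 0.863% and 0.874% of the summed FPKM with doxycycline and 0.814% and 0.816% without. Without Rpl41 and Rps27 those shares were 0.363%, 0.358%, 0.405% and 0.384%. Just inside the minimum of 1 FPKM, XLOC_046348 was at 0.145 and 0.153 with and at 1.04 and 0.967 without doxycycline, and XLOC_021848 was at 0.695 and 0.702 with and at 0.996 and 1.02 without. Just outside it, XLOC_026700 was at 1.34 and 0.661 with and at 0.601 and 0.422 without, and XLOC_006537 at 0.279 and 0.283 with and at 1.08 and 0.915 without.

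**Figure D1:**
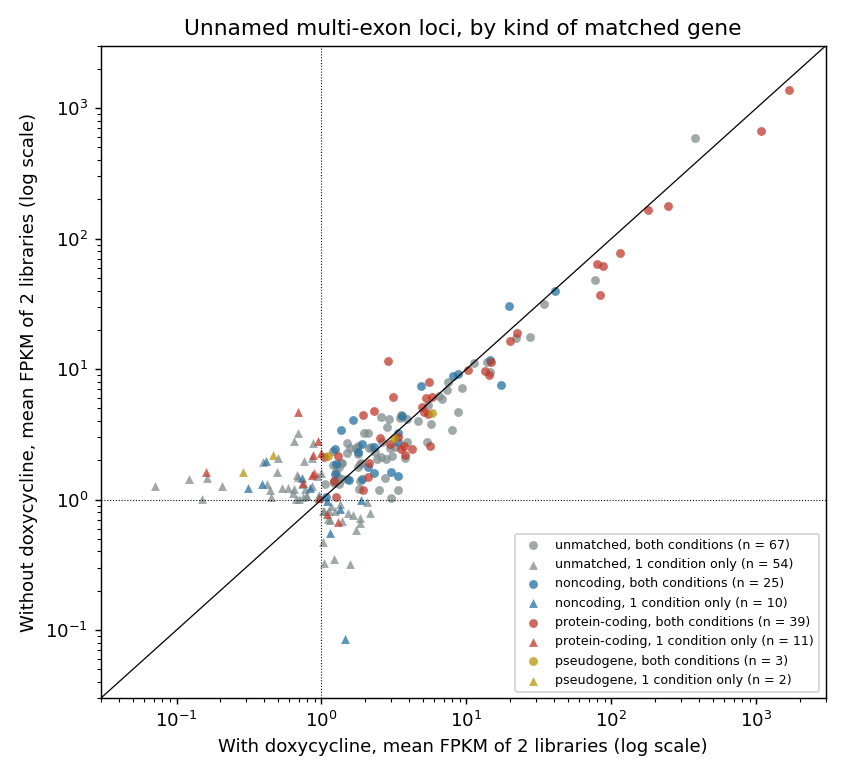
Mean FPKM of the 2 libraries with doxycycline (x axis, log scale) against that without (y axis, log scale) for the 211 unnamed multi-exon loci, coloured by the kind of gene they matched. Circles reached 1 FPKM (dotted lines) in both conditions and triangles in 1 only; the solid line marks equal levels, and most loci above 50 FPKM are matched to protein-coding genes.

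In 134 of the 211 loci the mean reached 1 FPKM in both conditions, in 50 without doxycycline only and in 27 with it only. The 77 that passed in 1 condition had to differ by the way they were chosen, and are given as values only. Of all loci tested 10.1% passed in 1 condition, 5.67% without and 4.40% with doxycycline, and of named multi-exon loci 6.60%. Named loci were at higher levels. Of the 720 unnamed single-exon loci, whose levels also lay near the minimum, only 363 reached it in both conditions. Among the 134, limma called 21 higher without doxycycline and 32 lower, and 81 did not pass. That is 39.6% of them called, and the background among the 12800 loci at 1 FPKM or more in both conditions was 39.2%. In the background 18.1% were higher and 21.1% lower. Over all 14233 loci tested 40.7% were called, 19.6% higher and 21.0% lower. At the minimum in both conditions, named multi-exon loci were called in 39.6% of cases (19.5% higher, 20.1% lower) and unnamed single-exon loci in 27.3%. The median log2 change of the 134 was -0.05, beside -0.06 for the background of 12800 loci. In 88 of the 134 the groups of 2 libraries did not overlap, where 71.8% of the background did not. In bulk RNA, fewer cells of a type and less RNA per cell cannot be told apart. Computed as TPM instead of FPKM, 23 of the 134 were higher and 16 lower. Of all 17011 loci tested as TPM, 4318 were higher and 1956 lower. TPM moved the median of all loci from -0.053 to 0.114 and the share of higher among all calls from 48.3% to 68.8%.

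**Figure D2:**
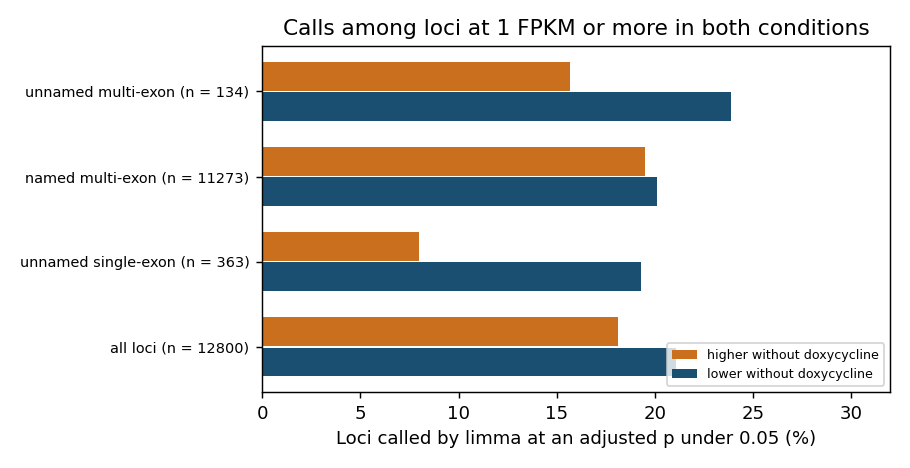
Percentage of loci called higher (orange) or lower (blue) without doxycycline by limma, for the 134 unnamed multi-exon loci and 3 wider sets, all at 1 FPKM or more in both conditions. The unnamed multi-exon loci stand at 15.7% higher and 23.9% lower, and unnamed single-exon loci at 7.99% and 19.3%.

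Each change below is the log2(FPKM + 0.5) value without minus that with doxycycline, which understates changes of low loci. Errors are SD over n = 2 libraries for levels and the standard error of limma's fit for changes. Of the 35 called members named with a test, 13 kept the call in each of 4 fits that left out 1 library. The other 22 lost it in at least 1 fit, and their values are given with them. As TPM 9 of the called members lost the call. In the most abundant isoform alone 16 lost it, and so did XLOC_037393, whose direction turned. Those values are given as well. The matches to Mfsd4b4, Cyp4f17, 2400006E01Rik and Gm43568 were not tested in that fit, because their most abundant isoform was under the minimum.

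The 2 highest of the unnamed loci matched ribosomal protein genes. XLOC_006788, the Rpl41 match, was at 1605 and 1774 FPKM with doxycycline and at 1219 and 1542 without. The groups did not overlap, but the change of -0.30 (standard error 0.15) did not pass (limma adjusted p = 0.168). XLOC_039021 (chr3:90016593-90017596, minus strand) matched Rps27, a small-subunit ribosomal protein gene, and starts 21 nt from Rab13 on the other strand. Its level was 1050 and 1092 FPKM with and 699 and 635 without doxycycline, and it fell by 0.68 (standard error 0.10, limma adjusted p = 0.00763). In both conditions its libraries lay close together. Without library 1 of the doxycycline condition the change was -0.66 with an adjusted p of 0.0656. Several single-exon loci named Rpl41 or Rps27 lie on other chromosomes. The one named Rps27 on chromosome 9 was at 256 ± 10.9 FPKM with and 133 ± 16.6 without (n = 2), and the highest named Rpl41, on chromosome 14, at 173 ± 23.1 and 122 ± 18.2. How reads that fit more than 1 of these loci were split is not stated, so the levels of both genes are uncertain.

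The matches to Lsm5, Snrpe and Tma7 were lower without doxycycline. XLOC_050196 (chr6:56651057-56654686, minus strand, 5 exons) matched Lsm5, a subunit of the Lsm rings that bind U6 RNA and act in mRNA decay. It was at 80.3 and 87.0 FPKM with doxycycline and at 35.0 and 38.9 without. The fall of 1.17 (standard error 0.10, limma adjusted p = 0.00225) was kept under each library left out. XLOC_003304 (chr1:135500448-135506868, minus strand) matched Snrpe, a core Sm protein of the spliceosome, and was at 231 and 262 FPKM with and 166 and 188 without. It fell by 0.48 (standard error 0.11, limma adjusted p = 0.0253). That call was lost without library 0 or 1 with doxycycline (adjusted p = 0.0608 and 0.164) and without library 0 off it (0.0903), at changes between -0.57 and -0.39. Its most abundant isoform alone changed by -0.48 (adjusted p = 0.0605), and as TPM the locus changed by -0.32 (adjusted p = 0.0286). XLOC_062669 (chr9:108980502-108984939, minus strand) matched Tma7, a gene named for association with the translation machinery, and starts 68 nt from Ccdc51 on the other strand. It was at 111 and 120 FPKM with and 76.1 and 79.2 without, and fell by 0.57 (standard error 0.09, limma adjusted p = 0.00784). Without library 1 of the doxycycline condition the change was -0.51, with an adjusted p of 0.0671.

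Of a myosin, a ubiquitin-pathway and a tripartite-motif gene, the last was called. XLOC_006784 (chr10:127927916-127931001, minus strand) matched Myl6, a nonmuscle myosin light chain gene, and was at 170 and 190 FPKM with and 155 and 175 without, so the groups overlapped. Its change was -0.12 (limma adjusted p = 0.404), and 0.04 as TPM. XLOC_027976 on chromosome 18 has 8 exons and matched Ube2d2a, which encodes a ubiquitin-conjugating enzyme. It was at 86.7 and 71.5 FPKM with and 69.1 and 57.8 without, a change of -0.31 that did not pass (limma adjusted p = 0.127). XLOC_056874 (chr8:44265751-44283333, plus strand, 8 exons) matched Triml2, a tripartite-motif-like gene, and starts 72 nt from the locus named Triml1 on the other strand. Its values were 89.3 and 84.5 FPKM with and 64.3 and 58.1 without, and it fell by 0.50 (standard error 0.09, limma adjusted p = 0.0129). The call was lost without either doxycycline library (changes -0.46 and -0.54, adjusted p = 0.0802 and 0.0625) and as TPM (-0.35, adjusted p = 0.0594). The Triml1 locus was at 93.4 and 86.8 FPKM as means of the 2 conditions, a change of -0.11 (limma adjusted p = 0.485).

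**Figure D3:**
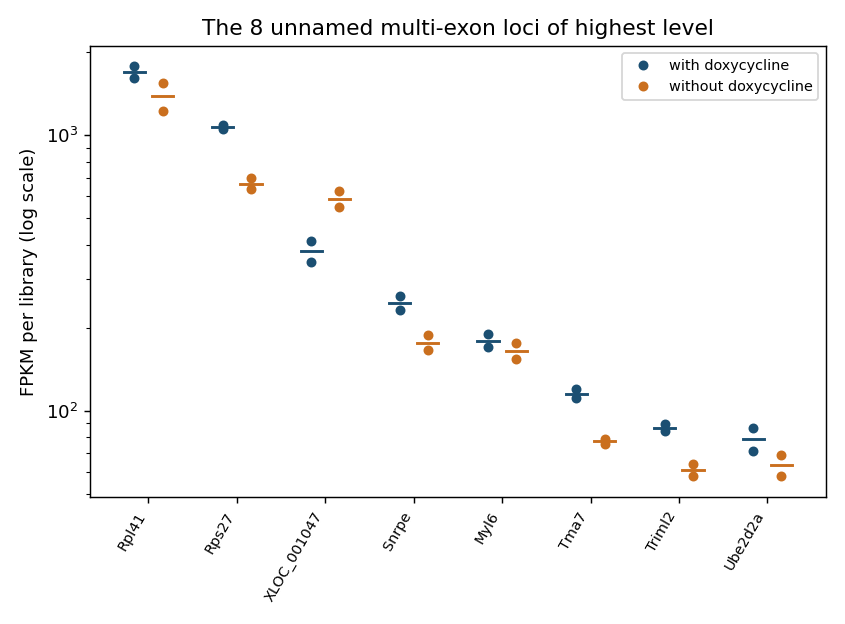
FPKM of each library (points) and the mean of the 2 libraries (bars) on a log axis for the 8 unnamed multi-exon loci of highest level, labelled by the matched gene or the locus identifier, with doxycycline in blue and without in orange. XLOC_001047 is higher without doxycycline, 549 and 626 FPKM against 346 and 412.

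The third highest locus had no match by the procedure used here. XLOC_001047 (chr1:96048751-96049705, plus strand) has 2 exons and 1 isoform of 764 nt, and its nearest named gene is Pdcd1, 99621 bases away and at 0.0123 and 0.0168 FPKM. The locus was at 346 and 412 FPKM with doxycycline and at 549 and 626 without, from 11147 and 17118 reads in the libraries numbered 1. It rose by 0.63 (standard error 0.13, limma adjusted p = 0.0174). The call was lost without library 0 with doxycycline (0.51, adjusted p = 0.105) and without library 1 off it (0.54, adjusted p = 0.0654). Of the 8 highest loci 5 were called, beside 39.2% of the background, and XLOC_001047 was the one that rose. Of the 43 members averaging 5 FPKM or more, 44.2% were called. The second highest unmatched locus, XLOC_015359 on chromosome 13, begins upstream of Zfp273 and was at 77.5 and 75.9 FPKM with and at 46.9 and 50.3 without.

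The largest rises included coding genes. XLOC_047749 (chr5:143200532-143206801, minus strand, 4 exons) matched the exons numbered 23 to 25 of Tnrc18, a large gene named for its trinucleotide repeats. It was at 3.06 and 2.66 FPKM with and at 11.2 and 11.8 without doxycycline, a rise of 1.84 (standard error 0.10, limma adjusted p = 0.00157). The groups were far apart relative to the spread of either. XLOC_054000 (chr7:11746992-11751497, minus strand) matched Zscan4d, of a zinc-finger family known from early embryos and from a changing minority of ES cells. It was at 3.27 and 2.93 FPKM with and at 5.70 and 6.46 without, and rose by 0.87 (standard error 0.11, limma adjusted p = 0.00512). Zscan4b (XLOC_053992) and Zscan4e (XLOC_054002) passed the minimum without doxycycline only, at 1.34 and 1.83 and at 1.35 and 1.74 FPKM. With doxycycline they were at 0.740 and 1.04 and at 0.900 and 0.822. The GENCODE coding sequences of the 3 are between 96.4% and 99.7% identical, so how reads divide among them is uncertain.

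Further coding matches rose from low levels. XLOC_005134 (chr10:103606899-103616256, plus strand) matched an intron of Gm21293 and was at 1.93 and 2.67 FPKM with and at 3.56 and 5.98 without. It rose by 0.89 (limma adjusted p = 0.0437), and lost the call without library 0 with doxycycline (0.69, adjusted p = 0.0973) and without library 1 off it (0.55, adjusted p = 0.118), and in its most abundant isoform (0.89, adjusted p = 0.0977). XLOC_025301 (chr17:32643355-32667427, plus strand) had the most exons, 13, and matched Cyp4f17, a cytochrome P450 gene, in 12 introns. It was at 1.44 and 1.15 FPKM with and at 2.32 and 2.03 without, a rise of 0.58 (standard error 0.15, limma adjusted p = 0.0302). Without library 1 with doxycycline, or library 0 or 1 off it, the change was 0.46, 0.50 or 0.66 (adjusted p = 0.123, 0.111 and 0.0591). Its neighbour Cyp4f16 rose as well, by 0.53 (limma adjusted p = 0.0352), from 2.84 to 4.30 FPKM. Smim22, a small membrane protein gene chosen here after its values were seen, matched XLOC_022499 and was at 0.748 and 1.33 FPKM with and 2.12 and 2.13 without. Its rise of 0.80 (limma adjusted p = 0.0327) lost the call without library 0 with doxycycline and without either library off it, with an adjusted p of up to 0.0934 and changes between 0.52 and 0.80 there. In its most abundant isoform the change was 1.25 (adjusted p = 0.139).

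Noncoding matches changed in both directions. Of 35, 25 reached the minimum in both conditions, and 5 were called higher and 4 lower, beside 18.1% and 21.1% of the background. XLOC_056975 (chr8:53441518-53446070, plus strand) matched an intron of 1190028D05Rik, a long intergenic noncoding RNA gene. It was at 1.78 and 1.51 FPKM with and at 4.52 and 3.62 without, and rose by 1.09 (standard error 0.15, limma adjusted p = 0.00563). XLOC_039572 (chr3:122325192-122332804, minus strand) matched introns of Gm43568, another noncoding gene, 2484 bases upstream of Fnbp1l. It was at 1.53 and 1.20 with and 3.64 and 3.13 without, a rise of 1.06 (standard error 0.15, limma adjusted p = 0.00586), while Fnbp1l was at 30.0 and 33.1 FPKM (change 0.14, adjusted p = 0.283). In multi-exon isoforms alone Gm43568 rose by 0.66 (adjusted p = 0.0115). In both loci the 2 groups were clear of each other.

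The other 3 noncoding rises were chosen here after their values were seen. Gm33489 (XLOC_016353) was at 1.29 and 1.17 FPKM with and 2.21 and 2.67 without, a rise of 0.76 (limma adjusted p = 0.0123). Taking multi-exon isoforms alone left a change of 0.50 (adjusted p = 0.106), and its most abundant isoform one of 0.39 (adjusted p = 0.360). Gm35240 (XLOC_012287) and Gm26821 (XLOC_054161) were each matched at the junction of exons 1 and 2. Gm35240 was at 5.26 and 4.45 with and 7.34 and 7.49 without, a rise of 0.57 (limma adjusted p = 0.0144). Gm26821, whose exons overlap Nova2 on the other strand, was at 1.91 and 1.87 with and 2.62 and 2.75 without, a rise of 0.41 (limma adjusted p = 0.0347). Gm35240 kept the call only without library 0 with doxycycline, its adjusted p being up to 0.0738 and its change 0.46 to 0.58 without any of the others. Gm26821 lost it under each library left out, at changes of 0.38 to 0.45 and adjusted p between 0.0925 and 0.136. Neither passed in its most abundant isoform, at 0.51 (adjusted p = 0.135) for Gm35240 and 0.41 (adjusted p = 0.111) for Gm26821.

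Among noncoding matches at the minimum in both conditions, the largest fall lay opposite a gene that rose. XLOC_060653 (chr9:72887508-72890598, plus strand) matched 2310009A05Rik at the junction of exons 1 and 2. The locus starts 2 nt from Pigb, a gene of glycosylphosphatidylinositol anchor synthesis on the other strand. It was at 17.1 and 17.3 FPKM with and at 8.70 and 6.51 without, and fell by 1.14 (standard error 0.15, limma adjusted p = 0.00491). The Pigb locus went from 7.92 to 12.1 FPKM, a rise of 0.58 (limma adjusted p = 0.00938). XLOC_028474 on chromosome 18 matched AC131065.2 and overlaps exons of 1110032A13Rik on the other strand. It was at 3.08 and 3.62 with and 1.29 and 1.72 without, a fall of 0.95 (standard error 0.16, limma adjusted p = 0.00952). In its most abundant isoform the change was -0.70 (adjusted p = 0.118).

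The other 2 noncoding falls, named after their values were seen, were smaller. 2400006E01Rik (XLOC_038565) was at 3.45 and 2.56 with and 1.90 and 1.38 without, and fell by 0.71 (limma adjusted p = 0.0357). Without library 0 with doxycycline its change was -0.53 (adjusted p = 0.108), and without library 1 off it -0.53 (adjusted p = 0.120), and as TPM it was -0.64 (adjusted p = 0.0897). Gm6712 (XLOC_024877) was at 14.2 and 15.0 with and 11.9 and 11.5 without, and fell by 0.31 (limma adjusted p = 0.0382). It lost the call under each library left out, with changes of -0.35 to -0.27 and adjusted p between 0.0995 and 0.224. As TPM its change was -0.15 (adjusted p = 0.234), and in the most abundant isoform -0.22 (adjusted p = 0.269). The highest noncoding matches were not called: Gm26905 (XLOC_057029) was at 50.5 and 31.2 with and 48.3 and 31.2 without, and Gm7976 (XLOC_023563) at 21.5 and 17.6 with and 40.8 and 19.9 without. In Gm26905 the libraries numbered 0 were the higher in both conditions, and the groups overlapped.

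Coding matches were called lower more often than higher, 13 against 7 of the 39 at the minimum in both conditions. Of the background 21.1% were lower and 18.1% higher. XLOC_021885 (chr15:75699919-75715884, minus strand, 6 exons) matched Mroh6, a gene of maestro heat-like repeats, and was at 5.64 and 5.59 FPKM with and at 2.80 and 2.37 without. It fell by 0.99 (standard error 0.11, limma adjusted p = 0.0039), and by 0.49 in its most abundant isoform (adjusted p = 0.0925). Its neighbour Gsdmd, a pore-forming protein gene 1917 bases away, rose from 2.68 to 7.40 FPKM (log2 change 1.31, limma adjusted p = 0.00195). XLOC_000339 (chr1:37142184-37198176, plus strand, 10 exons) matched Vwa3b, a gene with a von Willebrand factor A domain, at junctions that include those of exons 7 to 14. It was at 13.8 and 14.7 FPKM with and at 7.65 and 10.5 without, and fell by 0.64 (standard error 0.16, limma adjusted p = 0.0279). The call was lost without library 1 with doxycycline (-0.59, adjusted p = 0.0968) and without library 0 off it (-0.42, adjusted p = 0.0582), and in its most abundant isoform (-0.59, adjusted p = 0.0933). The locus that carries the name Vwa3b, upstream on the same strand, was at 0.0999 and 0.0933 FPKM.

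A pair of smaller coding falls was named after their values were seen. Fignl2 (XLOC_022367), a fidgetin-like gene, was at 4.51 and 3.85 FPKM with and 2.94 and 1.94 without, and fell by 0.69 (limma adjusted p = 0.0385). It kept the call without library 0 off doxycycline, while without any of the other 3 its adjusted p was up to 0.102 and its change -0.79 to -0.44. As TPM the change was -0.59 (adjusted p = 0.106), and in the most abundant isoform -0.70 (adjusted p = 0.0810). Mfsd4b4 (XLOC_005830), a transporter-family gene, was at 2.12 and 1.76 with and 1.08 and 1.30 without, and fell by 0.53 (limma adjusted p = 0.0409). Each library left out ended that call, with changes of -0.64 to -0.42 and adjusted p between 0.0628 and 0.159, as did equal condition medians (adjusted p = 0.0557) and TPM (-0.46, adjusted p = 0.0877).

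A group of the coding matches encodes zinc-finger proteins, gathered here after the matches were seen. The GENCODE coding sequences of 9 of them held between 7 and 14 copies of the C2H2 finger pattern, found in the translated sequence. Genes of this kind lie in clusters, and many of them bind DNA and repress transposons or genes. All 9 reached the minimum in both conditions, 3 were called lower and 6 did not pass, and 8 of the 9 changes were below 0. In the background 21.1% were called lower, and its median change was -0.06. The matches to Zscan4b, Zscan4d and Zscan4e, described above with their higher levels without doxycycline, hold fewer than 7 copies and are not among the 9. Of the 9, 5 lay on chromosome 7 between 48796347 and 50122620: Zfp141, Zfp977, Gm6871, Gm17067 and Gm2381. Zfp141 (XLOC_054653, 7 exons) was at 14.7 and 14.9 FPKM with and 11.3 and 11.3 without, a fall of 0.38 (limma adjusted p = 0.0184). Gm6871 (XLOC_054638) was at 14.3 and 12.6 with and 10.7 and 8.66 without, and fell by 0.46 (limma adjusted p = 0.0426). Zfp955b (XLOC_025322), on chromosome 17, was at 3.87 and 3.53 with and 2.56 and 2.58 without, and fell by 0.45 (limma adjusted p = 0.0242).

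Those 3 falls were small, and each lost its call in some of the alternatives. Leaving out any library ended the calls of Zfp141 (changes -0.39 to -0.37, adjusted p 0.0666 to 0.117) and Zfp955b (changes -0.51 to -0.39, adjusted p 0.0717 to 0.116). Gm6871 kept its call only without library 0 off doxycycline, with an adjusted p of up to 0.152 and changes of -0.54 to -0.31 in the other 3 fits. As TPM none of the 3 passed (adjusted p = 0.0927, 0.0921 and 0.190), nor did their most abundant isoforms alone, with changes of -0.50, -0.11 and -0.25 (adjusted p = 0.315, 0.669 and 0.256). Those values are in the order Zfp141, Zfp955b and Gm6871. Gm17067 (XLOC_054665) was at 21.0 and 19.0 FPKM with and 17.4 and 15.4 without, and Gm2381 (XLOC_054668) at 10.6 and 9.90 with and 10.3 and 9.39 without. The values of Zfp977 (XLOC_054659) were 6.56 and 5.07 with and 6.86 and 5.40 without.

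**Figure D4:**
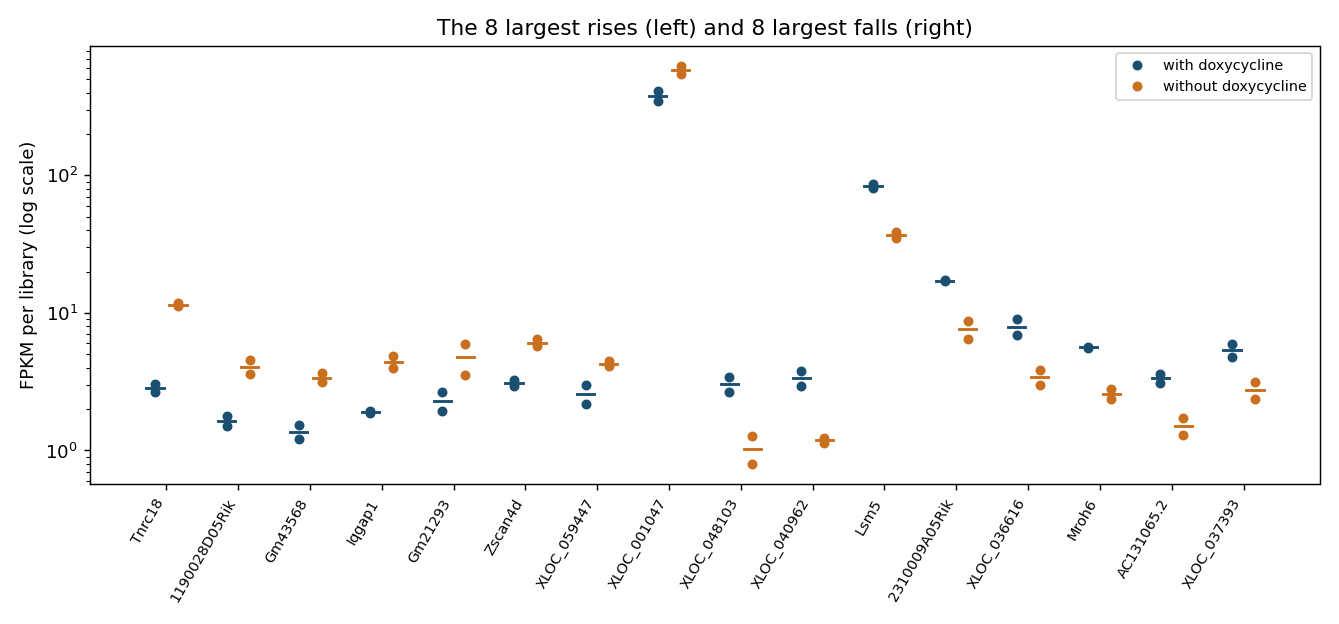
FPKM of each library (points) and the mean of the 2 libraries (bars) on a log axis for the 8 largest rises (left) and 8 largest falls (right) among called loci that reached 3 FPKM in either condition, with doxycycline in blue and without in orange. The Tnrc18 match goes from 3.06 and 2.66 to 11.2 and 11.8 FPKM and the Lsm5 match from 80.3 and 87.0 to 35.0 and 38.9.

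Unmatched loci were called in 23 of the 67 that reached the minimum in both conditions, 8 higher and 15 lower. That is 34.3%, beside 39.2% of the background (18.1% higher, 21.1% lower). XLOC_040962 (chr4:99316964-99318763, plus strand, 2 exons) ends 4227 bases upstream of Foxd3, a transcription factor gene expressed in ES cells, on its strand. It was at 3.77 and 2.96 FPKM with and at 1.24 and 1.13 without, a fall of 1.19 (standard error 0.15, limma adjusted p = 0.00469). Foxd3 was at 30.5 and 26.2 FPKM, a change of -0.21 that did not pass (adjusted p = 0.197). XLOC_048103 (chr6:29582994-29592165, plus strand, 2 exons) was at 2.66 and 3.40 with and 0.796 and 1.27 without, and fell by 1.21 (standard error 0.20, limma adjusted p = 0.0095). XLOC_036616 (chr3:19834996-19835501, plus strand) is 253 nt long and was at 6.87 and 9.01 with and 3.82 and 3.02 without, a fall of 1.10 (standard error 0.17, limma adjusted p = 0.00775). Those levels rest on 27 and 10 reads in the libraries numbered 1.

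XLOC_037393 (chr3:90910033-91000749, plus strand, 4 exons, 8 isoforms) was at 5.96 and 4.79 FPKM with and 3.17 and 2.38 without, and fell by 0.85 (standard error 0.17, limma adjusted p = 0.0154). Its most abundant isoform changed by 0.01 (adjusted p = 0.973), its multi-exon isoforms alone by -1.43 (adjusted p = 0.00229), and without library 1 off doxycycline the locus changed by -0.67 (adjusted p = 0.0541). XLOC_059447 (chr8:114548862-114556267, minus strand, 3 exons) was at 2.16 and 3.01 with and 4.09 and 4.47 without, a rise of 0.64 (standard error 0.16, limma adjusted p = 0.0288). It lost the call without library 0 with doxycycline (0.44, adjusted p = 0.0832) and without library 0 or 1 off it (0.70 and 0.59, adjusted p = 0.0687 and 0.107). In its most abundant isoform the rise was 1.24 (adjusted p = 0.0260).

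Members that passed the minimum in 1 condition only included the largest differences, which the choice favours and which carry no test. XLOC_017479 (chr14:8789806-8796603, plus strand), matched to an intron of Gm45521, was at 0.648 and 0.725 FPKM with and at 5.37 and 4.0 without. XLOC_027059 (chr17:43671138-43695496, minus strand), matched to an intron of Ankrd66, was at 0.195 and 0.124 with and 1.85 and 1.38 without. Its neighbour Pla2g7, which encodes a secreted phospholipase, rose from 14.0 to 42.6 FPKM (log2 change 1.57, limma adjusted p = 0.00165). XLOC_035554 on chromosome 2 was at 0.877 and 0.490 with and 3.65 and 2.83 without, and XLOC_009022 on chromosome 11 at 0.0583 and 0.0832 with and 1.32 and 1.23 without.
Lower without doxycycline were XLOC_022311, matched to an intron of Gm34152 (1.08 and 1.85 with, 0.149 and 0.0208 without), and XLOC_008873 (1.82 and 1.35 with, 0.156 and 0.486 without). XLOC_057357 was at 2.16 and 2.20 with and 0.519 and 1.05 without. XLOC_015582 was at 2.01 and 1.45 with and 1.03 and 0.147 without, with its libraries off doxycycline far apart. XLOC_008873 rests on 8 and 3 reads and XLOC_022311 on 30 and 2 in the libraries numbered 1.

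Some matched symbols are also carried by another locus of the assembly on the same chromosome and strand, and its level is set beside that of the unnamed locus. Such a locus may carry other symbols as well, and its level sums all its isoforms. In 8 such pairs both loci were tested and the unnamed locus passed the minimum in both conditions. The named Tnrc18 locus, of 17 exons, lies at chr5:143511820-143580436 and does not overlap the unnamed one. It rose from 5.84 ± 0.25 to 16.6 ± 4.32 FPKM (n = 2), by 1.41 (limma adjusted p = 0.00502), beside 1.84 for the unnamed locus. The named AC131065.2 locus fell from 164 ± 2.26 to 104 ± 8.40 FPKM, by 0.66 (limma adjusted p = 0.00664), beside 0.95. Adrb3, the beta-3 adrenergic receptor gene, rose by 0.67 (limma adjusted p = 0.0104) in its named locus. The unnamed locus 126 bases upstream of it was at 5.18 and 5.83 with and 7.98 and 7.92 without, a rise of 0.50 (limma adjusted p = 0.0151). In multi-exon isoforms alone that rise was 0.06 (adjusted p = 0.836), and in the most abundant isoform 0.48 (adjusted p = 0.132). It lost the call without library 0 with doxycycline (0.42, adjusted p = 0.0771) and without library 0 or 1 off it (0.49 and 0.50, adjusted p = 0.0601 and 0.0610).

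Of the remaining pairs tested, Iqgap1 had both loci called, Tmpo and Mrpl20 had 1 each, and Slc26a6 and Ssr2 neither. XLOC_055282 (chr7:87966666-87970911, minus strand, 259 nt) lies in the body of Iqgap1, a scaffold protein gene, and rose from 1.95 and 1.89 to 4.01 and 4.85 FPKM, by 1.02 (limma adjusted p = 0.00469), on 6 and 17 reads in the libraries numbered 1. The named Iqgap1 locus rose by 0.35 (limma adjusted p = 0.0379). XLOC_006434, by Tmpo, which encodes a lamina-associated protein, was at 4.23 and 3.35 with and 2.47 and 1.89 without and fell by 0.68 (limma adjusted p = 0.0278), while the named locus changed by -0.25 (adjusted p = 0.218). The fall of the unnamed locus lost the call without library 0 with doxycycline (-0.53, adjusted p = 0.0877) and without library 1 off it (-0.52, adjusted p = 0.0981). It also lost the call as TPM (-0.58, adjusted p = 0.0807) and in the most abundant isoform (-0.88, adjusted p = 0.0564). Mrpl20, a mitochondrial ribosomal protein gene, fell by 0.84 (limma adjusted p = 0.00342) in its named locus, and the unnamed one changed by -0.47 (adjusted p = 0.0693). For Slc26a6 the changes were -0.20 and -0.40 (adjusted p = 0.270 and 0.180). The difference between the 2 loci of a pair was not tested.

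**Figure D5:**
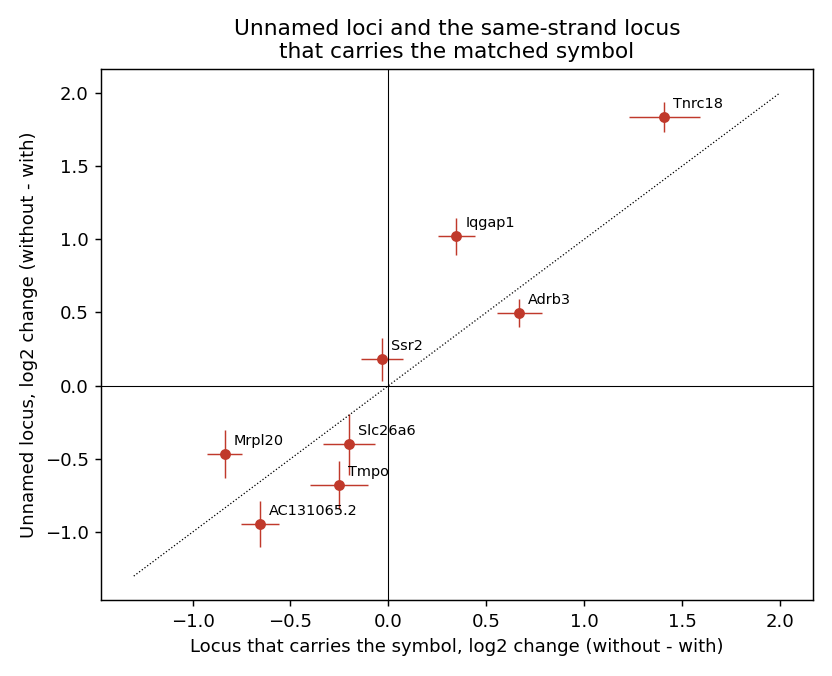
Log2 change (without minus with doxycycline, log2(FPKM + 0.5)) of 8 unnamed loci (y axis) against that of the same-strand locus that carries the matched symbol (x axis), with standard errors of limma's fit as bars and a dotted line of equality. Tnrc18 stands apart at 1.41 and 1.84, and Ssr2 lies near 0 on both axes.

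By position, the highest member on the antisense strand of a gene's exons was XLOC_037306 (chr3:88379707-88380268, plus strand), matched to an intron of Ssr2, a translocon-associated protein gene. It was at 4.52 and 6.0 FPKM with and 5.67 and 6.28 without, and the groups overlapped (change 0.18, limma adjusted p = 0.375). Within a gene body on the other strand the highest was XLOC_024688 (chr17:6429221-6435441, plus strand, 5 exons), matched to Dynlt1b, a dynein light chain gene. It was at 4.74 and 6.21 with and 3.53 and 5.50 without (change -0.27, limma adjusted p = 0.375). Dynlt1a, matched by XLOC_026251 on the other strand of the same chromosome, was at 2.45 and 2.64 with and 2.17 and 3.71 without. The coding sequences of the 2 genes are 99.7% identical, and their reads cannot be assigned with certainty. Of 13 divergent members at the minimum in both conditions, 7 were called lower and 1 higher. That is 61.5% called, the highest share of any position class, beside 39.2% of the background (21.1% lower, 18.1% higher). Called higher and lower were 15 and 19 of 87 intergenic members, 3 and 4 of 14 upstream and 0 and 1 of 9 downstream. They were 1 and 0 of 5 within a gene body on their own strand, and 1 and 1 of 5 antisense to exons. The 1 member within a gene body on the other strand was not called. The classes were not tested against each other. Rps27, Tma7, Triml2, Zfp141, Mfsd4b4 and 2310009A05Rik are among the 7 divergent members called lower. Of those named, Triml2, Zfp141 and Mfsd4b4 lost the call as TPM, and only 2310009A05Rik kept it under each library left out.

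Members were also set beside a named gene. This was the one that set their position class or, for intergenic members, the nearest one. Of 128 members whose named partner locus was also tested, 69 changed with the same sign as it did. Both were called in 26 cases, 17 of them in the same direction. The 128 include members that did not reach the minimum in both conditions. Those members had to differ by the way they were chosen, so the counts of 69, 26 and 17 are descriptions and carry no test. The same shares among other neighbouring loci were not computed, so no link between neighbours can be read from these counts. Across these 128 pairs Pearson's r of the log2 changes was 0.16, a description over loci that share 4 libraries.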

How the data were processed

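FPKM values per isoform were deposited by the authors, made with TopHat2 2.0.9 and Cufflinks 2.1.1 on NCBIM37, per the submitters' processing notes. The isoforms come from a Cuffmerge assembly with Ensembl transcripts, per the deposited annotation, whose coordinates count from 1. Cufflinks estimates isoform levels, so isoforms that share exons share reads. Date-like entries in place of 25 symbols (236 isoforms) were restored from a second deposited table, whose shared values differed in 5447 of 362054 cases, by at most 0.482%. Isoforms under 200 nt, which held 98.9% to 99.6% of all FPKM, were left out.

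FPKM was summed per locus, and the 14234 loci whose condition mean reached 1 FPKM were tested on log2(FPKM + 0.5) with limma's trend method (version 3.58.1, R 4.3.3). The fit had 2 residual degrees of freedom and 3.31 prior ones. Tests were two-sided, and p was adjusted by Benjamini-Hochberg over all loci, with calls under 0.05. The same fit was run on simulated data with known changes, whose values are not quoted. No label ties a replicate number to a column, so libraries were treated as unpaired. Members, lists and tests were chosen with earlier results of these data known.

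Named members were the 8 highest, the 8 largest rises and 8 largest falls among called members of at least 3 FPKM in the higher condition with the same sign in both library numbers, and the 4 largest rises and falls among those past the minimum in 1 condition. The 4 with most exons, the highest of each position class and 2 on either side of the minimum were added. Any other is said to have been chosen after its values were seen, or belongs to a pair with a named locus or a paralog. Exceptions are XLOC_015359, Gm26905 and Gm7976, which were added for their level and not followed in the alternatives. Loci were matched to GENCODE mouse release 21 (GRCm38) by exon and intron lengths and gene order, and no coordinate was converted. Position classes used windows of 1000 and 5000 bases. One locus is not reported here. Python 3.11.15, numpy 2.4.6, pandas 2.3.3 and matplotlib 3.10.9 were used. Alternatives covered the pseudocount, minimum, isoforms, scaling, block and each library left out.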

Additional observations from a re-analysis of the deposited data

How the results depend on the processing

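With pseudocounts of 0.1 and 1, a minimum on the mean of 4 libraries, condition medians set equal and multi-exon isoforms alone, the 4 counts of calls stayed within 1.5 times those reported. As TPM, 4318 of all loci were higher and 1956 lower, beside 2796 and 2994, and 16 members were lower, beside 32. Summing all isoforms gave 1846 higher and 1618 lower of all loci and 8 and 17 of the members. The most abundant isoform gave 1200 and 1119 of all loci and 6 and 15 of 112 members, and a minimum of 5 FPKM 5 and 19 of 49 members. With no filter 1603 of all loci were lower, and 6 members were higher and 15 lower. Leaving out each library in turn gave 8 to 13 members higher and 15 to 23 lower, and 1704 to 2060 higher and 1275 to 2125 lower of all loci; fewer libraries then stand behind each test, and the lone library is assumed to vary like the others. The library numbers share only a number; with it as a replicate block, 25 members were higher and 44 lower, and 3832 and 4734 of all loci. Deviations of libraries with the same number correlated at 0.33 over all loci and at -0.0019 over the members. The block added the calls of Rpl41, Ube2d2a and Mrpl20 (adjusted p = 0.0222, 0.00495 and 0.0127) and ended no call of the 42 members followed. Directions turned for Myl6 as TPM (0.037), for the most abundant isoform of XLOC_037393 (0.011), and with 1 library left out for Dynlt1b (-0.557 to 0.018, positive without library 0 off doxycycline) and Ssr2 (-0.0069 to 0.365, negative without library 0 with it). Of the 35 called among the 42, 19 lost the call with no filter, 15 with all isoforms and 9 as TPM. In the most abundant isoform 16 lost it, besides XLOC_037393. The matches to Mfsd4b4, Cyp4f17, 2400006E01Rik and Gm43568 were not tested in that fit. Equal condition medians ended the calls of Gm6712, Gm6871 and Mfsd4b4, and multi-exon isoforms alone those of Adrb3 and Gm33489. The cause was not tested. Depth limits XLOC_036616, XLOC_055282, XLOC_008873 and XLOC_022311, each with 30 reads or fewer in the libraries numbered 1, among other members.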
